A study of Mus musculus with 231 samples.

Results

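The miR-99, miR-100 and miR-125 miRNAs are 6 mature small RNAs, mmu-miR-99a-5p, mmu-miR-99b-5p, mmu-miR-100-5p, mmu-miR-125a-5p, mmu-miR-125a-3p and mmu-miR-125b-5p, taken by name. They were 6 of 1863 miRNAs in a table of raw counts and were also present in both tables of CPM (counts scaled to a common library size), which list 1895 and 1817 miRNAs. All were measured by small RNA sequencing of peripheral blood mononuclear cells (PBMC) from C57BL/6 mice. CM mice carry a conditional knock-in of the leukemia fusion gene Cbfb-MYH11 (Cbfb56M/+/Mx1-Cre), which the interferon-responsive Mx1-Cre switches on after injection of poly(I:C), and Ctrl mice were littermates that got the same injections. Mice were 6 to 8 weeks old when injected and received 7 doses of 14 mg/kg poly(I:C) every other day. The labels describe Ctrl mice as lacking the transgene and give them genotype codes (HW, CW and WT) that are not explained, against CHW for every CM mouse. The paper's methods instead list control littermates with the knock-in allele (Cbfb56M/+), a floxed allele or both, and name no Mx1-Cre in them. Labels and methods thus differ on what the Ctrl mice lack. Mx1-Cre acts in several tissues, so the fusion gene was not limited to blood cells. The training cohort held 7 CM mice (53 libraries, 4 females and 3 males) and 7 Ctrl mice (76 libraries, 2 females and 5 males), sampled monthly from month 0, before induction, to at most month 10 or until a mouse was ill with leukemia. The validation cohort held 10 CM mice (60 libraries) and 6 Ctrl mice (42 libraries).

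A miRNA guides the silencing machinery to messenger RNAs that pair with its seed, the bases near its 5′ end, so miRNAs that share a seed share many predicted targets. The miR-99/100 and miR-125 families are made from clusters that usually also hold a let-7 gene. In blood formation these clusters are known for high expression in hematopoietic stem cells and for a decline as cells mature, and miR-125b is known as a driver of myeloid leukemia when overexpressed in mice.

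The mature sequences are shown because both families differ in only a few letters outside a shared seed, which matters for how reads were assigned. They were taken from RefSeq on build GRCm38.p6 and are written 5′ to 3′ with the seed, bases 2 to 8, in capitals.
mmu-miR-99a-5p: aACCCGUAgauccgaucuugug
mmu-miR-99b-5p: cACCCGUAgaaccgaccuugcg
mmu-miR-100-5p: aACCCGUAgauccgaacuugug
mmu-miR-125a-5p: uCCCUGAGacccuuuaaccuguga
mmu-miR-125b-5p: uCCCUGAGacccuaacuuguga
mmu-miR-351-5p: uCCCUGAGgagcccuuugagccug
mmu-miR-125a-3p: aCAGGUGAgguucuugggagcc

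Of 1679 mature mouse names in the RefSeq table, the miR-99 seed was held by 3, all of them members here. mmu-miR-99a-5p and mmu-miR-100-5p differ by 1 base, U16A counted from the 5′ end, so a read with an error at that base could be assigned to the other miRNA. mmu-miR-99a-5p and mmu-miR-99b-5p differ at 4 positions (A1C, U11A, U16C and U21C). The miR-125 seed was held by 5 names, among them mmu-miR-125a-5p, mmu-miR-125b-5p and mmu-miR-351-5p, which is made from chromosome X and is not a member. mmu-miR-125a-5p (24 bases) and mmu-miR-125b-5p (22 bases) are identical over their first 13 bases. mmu-miR-125a-3p, from the other arm of the miR-125a hairpin, has a seed that no other name shared.

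The members come from 3 clusters, all on the plus strand. mmu-miR-99a-5p lies at chr16:77598940-77598961, and 1 of the 2 copies of mmu-miR-125b-5p lies at chr16:77646279-77646300, with let-7c-1 between them and no RefSeq gene around them. mmu-miR-100-5p (chr9:41531437-41531458) and the other copy of mmu-miR-125b-5p (chr9:41581940-41581961) lie inside Mir100hg, a long noncoding RNA gene at chr9:41376526-41615185. mmu-miR-99b-5p (chr17:17830194-17830215), mmu-miR-125a-5p (chr17:17830817-17830840) and mmu-miR-125a-3p (chr17:17830855-17830876) lie with let-7e inside Spaca6, a gene for a sperm membrane protein, at chr17:17826085-17843010. The chromosome 17 cluster spans 692 bases from the start of its first hairpin to the end of its last, against 47408 bases on chromosome 16 and 50578 bases on chromosome 9. Both copies of mmu-miR-125b-5p give the same mature sequence, so its reads do not show which cluster they came from.

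The raw counts summed to between 1792809 and 7958411 per training library, with a median of 4437464. Levels below are CPM computed from these counts with TMM scaling, a factor per library that evens out composition. Each member had at least 1 count in every training library (53 CM, 76 Ctrl). PBMC hold many cell types, and fewer cells of a type and less RNA per cell cannot be told apart in such bulk samples. The defining blood markers were all present. The sum of the lymphocyte miRNAs miR-150-5p and miR-150-3p was 40692 to 60770 CPM as Ctrl mouse means over months 1 to 3, that of the myeloid miR-223 arms 3685 to 12671 CPM and that of the pan-hematopoietic miR-142a arms 75652 to 114648 CPM. Red cell miRNAs were also abundant (a sum of 32542 to 50491 CPM), and the vessel wall miRNAs miR-143 and miR-145a were low (268 to 661 CPM).

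mmu-miR-99a-5p was the most abundant member, with a mean of 2958 CPM over the training libraries, rank 53 of 1863. mmu-miR-99b-5p followed at 908 CPM (rank 82), mmu-miR-125a-5p at 565 CPM and mmu-miR-125b-5p at 175 CPM (rank 142). mmu-miR-100-5p was scarce at 24.2 CPM (rank 258), and mmu-miR-125a-3p was at 4.91 CPM (rank 398). Levels of different miRNAs also reflect how well each is ligated during library preparation, so this order is one of read numbers. In the raw counts it was the same in most libraries. mmu-miR-99a-5p exceeded mmu-miR-99b-5p in 76 of 76 Ctrl and 53 of 53 CM libraries. mmu-miR-99b-5p exceeded mmu-miR-125a-5p in 73 of 76 Ctrl and 53 of 53 CM libraries, and mmu-miR-125a-5p exceeded mmu-miR-125b-5p in 76 of 76 and 52 of 53. That step depended on the table: in the deposited CPM it held in 75 of 76 Ctrl and 43 of 53 CM libraries. In the raw counts mmu-miR-125b-5p exceeded mmu-miR-100-5p in 74 of 76 Ctrl and 50 of 53 CM libraries, the least separated pair in CM mice. This step also depended on the table and held in 76 of 76 and 53 of 53 libraries in the deposited CPM. mmu-miR-100-5p exceeded mmu-miR-125a-3p in 60 of 76 Ctrl and 52 of 53 CM libraries, the least separated pair in Ctrl mice. The median count per library was 11228 for mmu-miR-99a-5p, 59 for mmu-miR-100-5p and 20 for mmu-miR-125a-3p, so the values of the last pair carry most counting error.

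**Figure D1:**
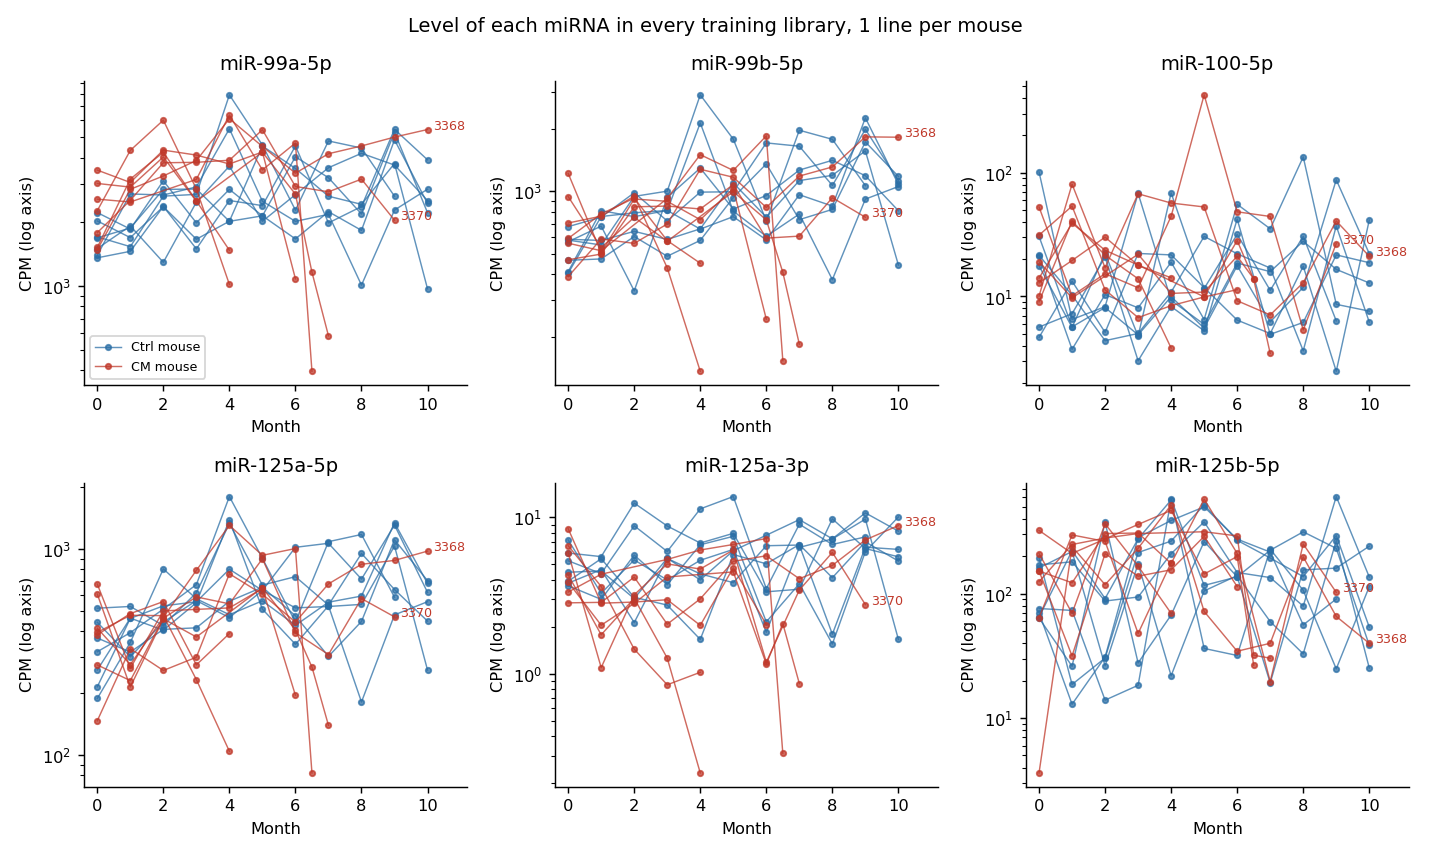
CPM (log axis) of each of the 6 miRNAs against month in every training library, with 1 line per mouse, CM in red and Ctrl in blue, and the CM mice 3368 and 3370 marked. The CM lines of miR-99a-5p lie above most Ctrl lines at months 1 to 3 (at month 2, 3280 to 5997 CPM against 1289 to 3111 CPM) and spread widely from month 4.

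At month 0 none of the 6 members passed the test between CM and Ctrl mice, against 0.209% of the 478 miRNAs tested at that month (edgeR quasi-likelihood test, Benjamini-Hochberg adjusted p under 0.05; 62 had an unadjusted p under 0.05). mmu-miR-99a-5p was then at 1478, 2254 and 3494 CPM (lowest, median and highest of 7 CM mice) against 1353, 1680 and 2207 CPM in 7 Ctrl mice. Its log2 fold change was 0.42 ± 0.21 (SE; adjusted p = 0.393), and 4 of 7 CM mice were above every Ctrl mouse, so a difference of the same sign was present in these samples at month 0 without passing the test. The other log2 fold changes were 0.38 ± 0.23 for mmu-miR-99b-5p, -0.49 ± 0.62 for mmu-miR-100-5p, 0.31 ± 0.30 for mmu-miR-125a-5p, 0.02 ± 0.25 for mmu-miR-125a-3p and 0.37 ± 0.58 for mmu-miR-125b-5p.

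Month 1 was the first month with calls among the members. Relative to Ctrl, mmu-miR-99a-5p and mmu-miR-100-5p were higher in CM mice and mmu-miR-125a-3p was lower, so 3 of 6 members were called, where 27.5% of 472 miRNAs were. mmu-miR-99a-5p stood at 2475, 2908 and 4326 CPM in CM mice against 1452, 1847 and 2700 CPM in Ctrl mice. The log2 fold change was 0.69 ± 0.16 (adjusted p = 0.0105), and 5 of 7 CM mice were above every Ctrl mouse. mmu-miR-100-5p stood at 9.75, 39.1 and 80.7 CPM in CM mice against 3.74, 6.52 and 13.3 CPM in Ctrl mice, a log2 fold change of 2.27 ± 0.46 (adjusted p = 0.00523). Again 5 of 7 CM mice were above every Ctrl mouse. mmu-miR-125a-3p stood at 1.09, 2.83 and 4.33 CPM in CM mice against 2.99, 4.54 and 5.61 CPM in Ctrl mice (log2 fold change -0.75 ± 0.27, adjusted p = 0.0499). That call was at the edge of the threshold: it was kept on leaving out CM mouse 3334, Ctrl mouse 3335 or Ctrl mouse 3346 and lost on leaving out any 1 of the other 11 mice (adjusted p from 0.0214 to 0.0993 over these 14 fits). The other 3 members were not called, with log2 fold changes of -0.17 ± 0.16 for mmu-miR-99b-5p, -0.34 ± 0.21 for mmu-miR-125a-5p and 0.69 ± 0.64 for mmu-miR-125b-5p. The members' median log2 fold change was 0.26, against -0.10 over all miRNAs tested.

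At month 2 the call was limited to mmu-miR-99a-5p, 1 of 6 members where 13.5% of 481 miRNAs passed. It stood at 3280, 4134 and 5997 CPM in 6 CM mice against 1289, 2638 and 3111 CPM in 7 Ctrl mice. The groups did not overlap, which was not counted over all miRNAs. The log2 fold change was 0.79 ± 0.19 (adjusted p = 0.0171). mmu-miR-100-5p was at 11.3 to 30.1 CPM against 4.40 to 22.3 CPM (log2 fold change 0.81 ± 0.39, adjusted p = 0.166), and mmu-miR-125b-5p at 118.2 to 365 CPM against 13.9 to 375 CPM (1.46 ± 0.64, adjusted p = 0.139). mmu-miR-125b-5p passed at this month when Ctrl mouse 3342, the highest Ctrl value, was left out (2.50, adjusted p = 0.00562; range over all alternatives 0.00562 to 0.334). The log2 fold changes of the chromosome 17 members at month 2 were 0.19 ± 0.22 for mmu-miR-99b-5p, -0.16 ± 0.20 for mmu-miR-125a-5p and -0.98 ± 0.40 for mmu-miR-125a-3p (edgeR adjusted p of 0.565, 0.591 and 0.113).

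At month 3 no member was called, against 22% of 455 miRNAs by the same edgeR test (171 had an unadjusted p under 0.05). The values of mmu-miR-99a-5p were 2494, 3159 and 4111 CPM in CM against 1490, 2471 and 2914 CPM in Ctrl mice (0.56 ± 0.20, adjusted p = 0.0522), and the call was gained on leaving out CM mouse 3334, 3336, 3338 or 3357 or Ctrl mouse 3342 or 3346 (adjusted p from 0.0313 to 0.0999 over the 14 mice). The log2 fold change then was 0.47 ± 0.71 for mmu-miR-100-5p, 0.59 ± 0.56 for mmu-miR-125b-5p and -0.04 ± 0.21 for mmu-miR-99b-5p. It was -0.29 ± 0.26 for mmu-miR-125a-5p and -0.69 ± 0.37 for mmu-miR-125a-3p (adjusted p = 0.198).

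From month 4 to month 6, as CM libraries became fewer, the edgeR test called no member. It called 0.837% of 478 miRNAs at month 4, 0% of 505 at month 5 and 0% of 444 at month 6, and 16.9%, 21.6% and 6.98% had an unadjusted p under 0.05. The CM range of mmu-miR-99a-5p widened to 1015 to 6340 CPM at month 4 (6 mice), while Ctrl mice ranged from 2008 to 7887 CPM, and the groups overlapped in part. Below every Ctrl mouse lay 2 CM mice, 3338 (1015 CPM) and 3357 (1469 CPM), each in its last library. The G number in their titles, described below, was not shared with any Ctrl library of that month. The value that stood out was mmu-miR-100-5p at month 5, at 9.91 to 426 CPM in 5 CM mice against 5.28 to 30.6 CPM in Ctrl mice (log2 fold change 3.20 ± 0.96, adjusted p = 0.12). The 426 CPM came from CM mouse 3370 alone, and without that mouse the log2 fold change was 0.96 (adjusted p = 0.377). Leaving out Ctrl mouse 3335 made it a call (3.70, adjusted p = 0.0453), and the adjusted p ranged from 0.00513 to 0.377 over all alternatives.

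The log2 fold changes of mmu-miR-99a-5p in months 4, 5 and 6 were 0.03 ± 0.44, 0.63 ± 0.24 and -0.05 ± 0.33. Those of mmu-miR-99b-5p were -0.64 ± 0.50, 0.14 ± 0.21 and -0.21 ± 0.42, and those of mmu-miR-125a-5p were -0.65 ± 0.48, 0.23 ± 0.17 and -0.25 ± 0.36. For mmu-miR-125a-3p they were -0.94 ± 0.55, -0.38 ± 0.28 and -0.32 ± 0.52. The 3 chromosome 17 members were thus below 0 at month 4, without passing the test. For mmu-miR-125b-5p they were -0.17 ± 0.63, 0.05 ± 0.63 and 0.06 ± 0.50, and for mmu-miR-100-5p they were 0.13 ± 0.64 at month 4 and -0.25 ± 0.49 at month 6.

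**Figure D2:**
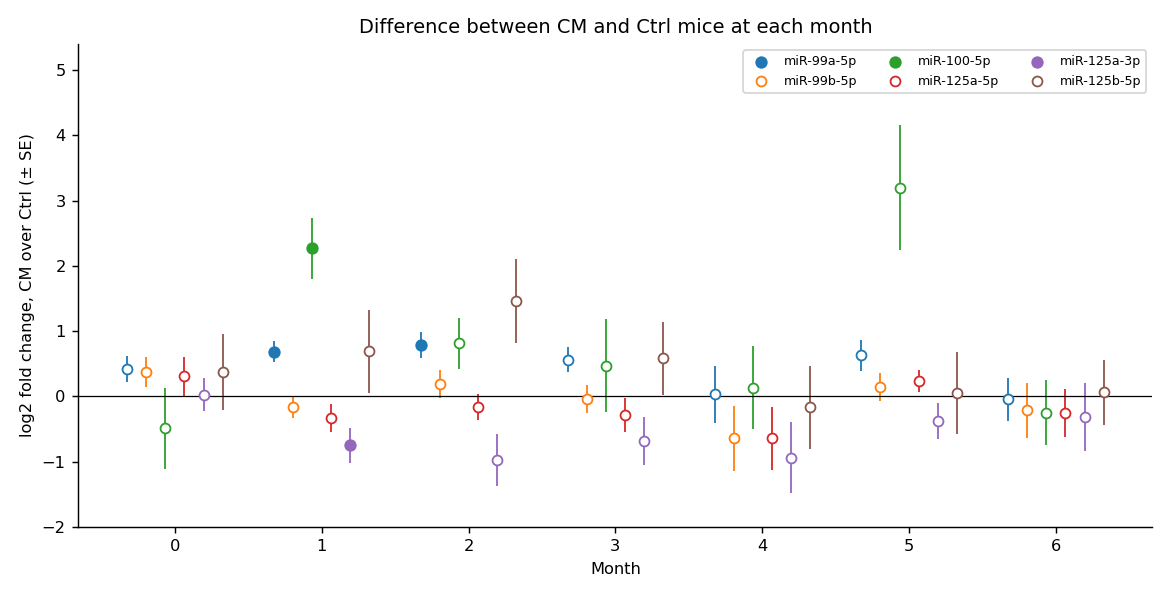
Log2 fold change of CM over Ctrl mice (error bars, SE of the edgeR fit) for each of the 6 miRNAs at months 0 to 6, with filled points for an adjusted p under 0.05. Filled points are miR-99a-5p at months 1 and 2 (0.69 and 0.79), miR-100-5p at month 1 (2.27) and miR-125a-3p at month 1 (-0.75).

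To use each mouse once, counts were summed per mouse over months 1 to 3, before the series of any CM mouse ended. Here 4 of 6 members were called, 3 with higher and 1 with lower levels in CM mice, where 35.6% of 649 miRNAs were called (231, of which 96 were lower). mmu-miR-99a-5p was higher in CM mice. Its mean over the libraries of a mouse was 2817, 3332 and 4391 CPM (lowest, median, highest of 7 CM mice) against 1767, 2284 and 2761 CPM in Ctrl mice. All 7 CM mice lay above all 7 Ctrl mice, a separation that was not counted over all miRNAs. The log2 fold change of mmu-miR-99a-5p was 0.70 ± 0.12 (edgeR adjusted p = 0.000611), a call kept under 22 of 22 alternatives (adjusted p from 3.94e-06 to 0.00893). mmu-miR-100-5p, its near-copy in sequence, was at 12.4, 23.9 and 55.1 CPM against 6.24, 10.4 and 27.6 CPM. Its groups overlapped, with a log2 fold change of 1.22 ± 0.38 (adjusted p = 0.0232). That call was lost without CM mouse 3368 (0.84, adjusted p = 0.0663), Ctrl mouse 3335 (1.04, adjusted p = 0.0576) or Ctrl mouse 3349 (1.04, adjusted p = 0.0546), within a range of 0.0034 to 0.0663 over all alternatives.

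mmu-miR-125b-5p was also higher over months 1 to 3, at 126.6, 203 and 285 CPM in CM mice against 35.2, 120.6 and 196 CPM in Ctrl mice. A total of 6 of 7 CM mice were above every Ctrl mouse, and the log2 fold change was 0.94 ± 0.25 (adjusted p = 0.00942). The size of this difference depended on the table. Reads recovered from the deposited CPM gave 0.45 ± 0.09 (adjusted p = 0.000922), and in that table all 7 CM means (360 to 493 CPM) exceeded all 7 Ctrl means (265 to 343 CPM). How many of all miRNAs separated in this way was not counted. Extending the sums to months 1 to 6 gave 0.35, which was not called (adjusted p = 0.177, the highest of the alternatives).

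The members from chromosome 17 were not called higher. mmu-miR-99b-5p, which shares its seed with mmu-miR-99a-5p, was at 616, 721 and 774 CPM in CM mice against 522, 785 and 834 CPM in Ctrl mice. Its log2 fold change was 0.02 ± 0.11 (adjusted p = 0.914). mmu-miR-125a-5p was at 295, 425 and 532 CPM against 380, 516 and 576 CPM (-0.22 ± 0.11, adjusted p = 0.137), and it was called lower without Ctrl mouse 3339 (-0.33, adjusted p = 0.0363) and with reads recovered from the deposited CPM (-0.30, adjusted p = 0.0492), with adjusted p up to 0.356 under the other alternatives. mmu-miR-125a-3p, the rarer strand of the same hairpin, was lower at 1.97, 3.01 and 4.86 CPM against 3.76, 4.20 and 8.92 CPM. A total of 6 of 7 CM mice were below every Ctrl mouse, and the log2 fold change was -0.72 ± 0.22 (adjusted p = 0.02). The call was lost when the sums were extended to months 1 to 6 (-0.71, adjusted p = 0.0554, the highest of a range from 0.00504). The members' median log2 fold change over these sums was 0.36, and that of all 649 miRNAs was 0.03.

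**Figure D3:**
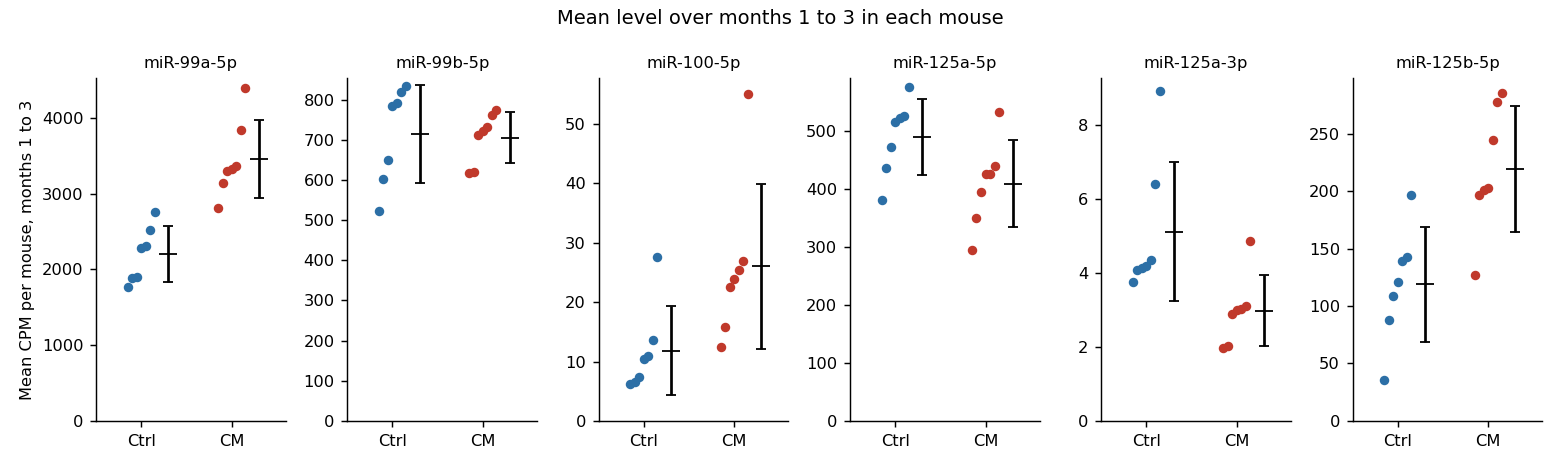
Mean CPM over the libraries of months 1 to 3 for each mouse (points; 7 Ctrl in blue, 7 CM in red) with the group mean and SD in black, 1 panel per miRNA with its own axis from 0. The miR-99a-5p groups do not overlap, at 2817 to 4391 CPM in CM and 1767 to 2761 CPM in Ctrl mice, whereas those of miR-99b-5p lie over each other.

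Other products of the 3 clusters showed where the members stood among their neighbours. The list held 11 such miRNAs, of which 7 passed the filter on low counts over months 1 to 3. A single one was higher in CM mice and 3 were lower, where 35.6% of 649 miRNAs were called. The 3 lower ones came from chromosome 17: mmu-let-7e-5p, a let-7 miRNA made from between miR-99b and miR-125a (log2 fold change -0.81 ± 0.13, adjusted p = 0.000412), mmu-let-7e-3p (-0.80 ± 0.26, adjusted p = 0.0251) and mmu-miR-99b-3p, the opposite strand of the miR-99b hairpin (-0.54 ± 0.14, adjusted p = 0.00855). The higher one, mmu-miR-125b-2-3p, is the passenger strand of the chromosome 16 copy of miR-125b (0.33 ± 0.12, adjusted p = 0.0475). mmu-let-7c-5p, mmu-let-7a-5p and mmu-miR-99a-3p were not called, and the first 2 are also made elsewhere in the genome. The let-7 miRNAs differ from each other by few bases, so their counts share some uncertainty of assignment. mmu-miR-351-5p, which carries the miR-125 seed from chromosome X, was higher (0.75 ± 0.13, adjusted p = 0.000648).

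The ratio of mmu-miR-99b-5p to mmu-miR-99a-5p, 2 miRNAs with 1 seed from 2 clusters, expresses the same contrast within a library. At month 0 it was 0.221 to 0.392 in CM and 0.240 to 0.382 in Ctrl mice. Over months 1 to 3 it was 0.162 to 0.256 in CM and 0.287 to 0.365 in Ctrl mice, without overlap. In the last CM and the Ctrl month 6 libraries it overlapped (0.134 to 0.386 and 0.211 to 0.424). Within the chromosome 17 cluster, the ratio of mmu-miR-99b-5p to mmu-let-7e-5p was 3.78 to 7.67 in CM and 2.33 to 3.52 in Ctrl mice over months 1 to 3, also without overlap. That of mmu-miR-99b-5p to mmu-miR-125a-5p overlapped (1.35 to 2.09 against 1.24 to 1.68), as did that of mmu-miR-125b-2-3p to mmu-miR-99a-5p (0.00998 to 0.0136 against 0.0117 to 0.0221). Separation was not counted over other ratios. These ratios are given without a test because they restate the counts tested above.

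Over months 1 to 3, 35.6% of 649 miRNAs were called. Among 9 further miRNAs listed as stem and progenitor cell miRNAs, 4 were higher in CM mice and none was lower. They were mmu-miR-126a-3p (1.95 ± 0.29, adjusted p = 0.0002) and mmu-miR-126a-5p (2.20 ± 0.30, adjusted p = 0.000164), both strands of the miRNA the study was about, mmu-miR-196b-5p from the Hox gene clusters (0.82 ± 0.13, adjusted p = 0.000364) and mmu-miR-130a-3p (0.33 ± 0.08, adjusted p = 0.00443). The difference in mmu-miR-99a-5p was thus similar in size to that of mmu-miR-196b-5p and smaller than those of the miR-126a strands, a comparison of sizes that was not tested.

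Other cell type markers also differed in these months. The sum of the 5 erythroid miRNAs was 39064 to 247363 CPM as CM mouse means and 32542 to 50491 CPM as Ctrl mouse means, and 5 of 5 were called as increased. The lymphocyte sum was 24950 to 47603 CPM in CM and 40692 to 60770 CPM in Ctrl mice, and mmu-miR-150-5p was called lower (-0.43 ± 0.13, adjusted p = 0.0213), while mmu-miR-150-3p was at 0.20 ± 0.11 (adjusted p = 0.177). The myeloid sum overlapped fully (6018 to 11257 CPM against 3685 to 12671 CPM, 0 of 2 called). Of the miR-142a arms, which all blood cells carry, mmu-miR-142a-3p was lower (-0.70 ± 0.11, edgeR adjusted p = 0.000331), while mmu-miR-142a-5p was at -0.01 and not called. The sum of both arms was 61910 to 85504 CPM in CM and 75652 to 114648 CPM in Ctrl mice. The muscle sum (miR-1a-3p, miR-133a-3p and miR-206-3p) was 36.9 to 343 CPM in CM and 10.7 to 159 CPM in Ctrl mice, with both tested members called higher. The vessel wall sum was 168 to 467 CPM against 268 to 661 CPM with 0 of 4 called, and none of these marker lists was at 0 in every library. The part of these cell types in the members' differences was not tested.

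The titles of the training libraries carry a G number from 1 to 7, which is not explained, while the labels state that libraries were prepared in randomized batches. CM and Ctrl libraries shared 3 G numbers at month 1, 2 at month 2 and 1 at month 3. At month 4 they shared 0, so arm and G number cannot be told apart there. The pairings of months 1 to 3 held only 1 or 2 CM and 1 to 3 Ctrl libraries each. Within these 6 pairings mmu-miR-99a-5p was higher in CM libraries in 6 of 6 (difference in mean log2 CPM 0.14 to 1.35, median 0.74), as were mmu-miR-100-5p (0.05 to 4.11) and mmu-miR-125b-5p (0.63 to 3.54). mmu-miR-99b-5p was higher in 3 of 6, mmu-miR-125a-5p in 2 of 6 and mmu-miR-125a-3p in 3 of 6 (-1.38 to 0.77). The same count over all miRNAs was not made. Adding this number to the model of each month, mmu-miR-99a-5p kept its size at month 1 (0.58 ± 0.19) and month 2 (1.01 ± 0.23) but was not called at either. The adjusted p was 0.126 and 0.137 by edgeR, near the high end of ranges from 4.91e-05 to 0.133 and from 0.00144 to 0.146 over the alternatives of each month. With the G number no other member was called at these months either, and the fit called 10 of 472 miRNAs at month 1 and 0 of 481 at month 2 (86 with an unadjusted p under 0.05).

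Over time the Ctrl mice themselves moved. Between month 0 and month 6, 3 of 6 members rose in Ctrl mice, where 20.5% of 474 miRNAs were called. mmu-miR-99a-5p went from 1353, 1680 and 2207 CPM (lowest, median and highest of 7 mice) to 1660, 2680 and 4540 CPM and was higher in 6 of 7 mice (log2 fold change 0.80 ± 0.20, adjusted p = 0.0122). mmu-miR-99b-5p went from 404, 572 and 676 CPM to 584, 752 and 1712 CPM, higher in 7 of 7 mice (0.84 ± 0.21, adjusted p = 0.0132). mmu-miR-125a-5p went from 188.5, 318 and 517 CPM to 345, 475 and 1021 CPM, also higher in 7 of 7 mice (0.77 ± 0.25, adjusted p = 0.0418). Without Ctrl mouse 3339 none of the 3 was called (0.66, 0.76 and 0.86, adjusted p = 0.0679, 0.0852 and 0.0999), although their sizes were close to those in all 7 mice. The mmu-miR-125a-5p call was also lost without Ctrl mouse 3340, 3342, 3346 or 3350 (adjusted p up to 0.152). With the mouse as a replicate block mmu-miR-125a-5p was not called (0.78, adjusted p = 0.0575). The other members were not called, with log2 fold changes of 0.52 ± 0.39 for mmu-miR-125b-5p, -0.17 ± 0.30 for mmu-miR-125a-3p and -0.08 ± 0.59 for mmu-miR-100-5p. The median log2 fold change of the members was 0.65, against 0.03 over all miRNAs tested.

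Between month 0 and month 1, the interval that held the induction, no member was called in either arm. By the edgeR test 0.63% of 476 miRNAs were called in Ctrl mice (68 with an unadjusted p under 0.05) and 12.7% of 466 in CM mice (147 with an unadjusted p under 0.05). mmu-miR-100-5p went from 4.67, 21.3 and 101.4 CPM to 3.74, 6.52 and 13.3 CPM in Ctrl mice (log2 fold change -2.01 ± 0.58, adjusted p = 0.146) and from 9.06, 14.1 and 52.8 CPM to 9.75, 39.1 and 80.7 CPM in CM mice (0.81 ± 0.52, adjusted p = 0.313). DESeq2 called its Ctrl value (-2.03, adjusted p = 0.0145, the lowest of a range up to 0.477). mmu-miR-125a-3p had a log2 fold change of -0.89 ± 0.31 in CM mice (adjusted p = 0.0674), a value that passed without CM mouse 3334 (-1.12, adjusted p = 0.036, the lowest of a range up to 0.193). The other 4 members had log2 fold changes from -0.16 to 0.26 in Ctrl mice and from -0.33 to 0.42 in CM mice, and that of mmu-miR-125a-3p in Ctrl mice was -0.20 ± 0.21. For mmu-miR-100-5p the difference between the arms in this change was called, at 2.86 ± 0.81 (adjusted p = 0.0284), 1 of 6 members where 8.46% of 520 miRNAs were called. With the mouse as a replicate block it was 2.28 (adjusted p = 0.174), and it was lost on leaving out CM mouse 3336, 3338, 3357 or 3368 or Ctrl mouse 3340, 3342, 3349 or 3350 (1.94, adjusted p = 0.109, without Ctrl mouse 3342, which had 101.4 CPM at month 0). For the change from month 0 to month 3 no member passed the test between the arms, against 2.33% of 515 miRNAs (80 with an unadjusted p under 0.05). For mmu-miR-99a-5p the difference in change was 0.38 ± 0.26 to month 1 and 0.14 ± 0.28 to month 3 (edgeR adjusted p of 0.366 and 0.833), so the excess in CM mice after induction did not exceed that at month 0 by an amount that passed the test. For the other members these differences in change ran from -0.66 to 0.46 at month 1, leaving out mmu-miR-100-5p, and from -0.72 to 0.94 at month 3.

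The last library of each CM mouse fell between month 4 and month 10. Across all 7 mice no member was called against month 0, while 39% of 446 miRNAs were by the same edgeR test (218 with an unadjusted p under 0.05). mmu-miR-99a-5p was at 397 CPM in mouse 3334 (month 6.5), 582 CPM in 3336 (month 7), 1015 CPM in 3338 (month 4), 1078 CPM in 3341 (month 6), 1469 CPM in 3357 (month 4), 2033 CPM in 3370 (month 9) and 5421 CPM in 3368 (month 10). At month 0 the same mice held 1478 to 3494 CPM. It was lower at the end in 5 of 7 mice, and it was higher in mouse 3370 (1777 CPM at month 0) and in mouse 3368 (1478 CPM at month 0). The log2 fold change over all 7 mice was -0.37 ± 0.45 (adjusted p = 0.53).

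The other members followed these mice in part. mmu-miR-99b-5p ended at 136.2 to 751 CPM in 6 mice and at 1824 CPM in mouse 3368, lower than at month 0 in the same 5 mice as mmu-miR-99a-5p. mmu-miR-125a-5p ended at 81.98 to 469 CPM in 6 mice and at 979 CPM in mouse 3368, and was lower in 4 of 7 mice, with mouse 3357 nearly level (384 CPM at month 0 and 389 CPM at the end). mmu-miR-125a-3p ended at 0.232 to 2.77 CPM in 6 mice, each below its own month 0 level, and at 8.87 CPM in mouse 3368. mmu-miR-100-5p (3.46 to 26.8 CPM) and mmu-miR-125b-5p (26.6 to 178 CPM) were lower at the end in 5 of 7 mice each. These included mouse 3370 (52.8 to 26.8 CPM and 152 to 102.5 CPM) and not mouse 3357 (12.9 to 14.2 CPM and 63.9 to 178 CPM), the reverse of mmu-miR-99a-5p. In the deposited CPM, however, mmu-miR-125b-5p rose in mouse 3370 (216 to 279 CPM). Over all 7 mice the log2 fold changes were -0.35 ± 0.51 for mmu-miR-99b-5p, -0.26 ± 0.48 for mmu-miR-125a-5p, -1.04 ± 0.58 for mmu-miR-125a-3p, -0.59 ± 0.48 for mmu-miR-100-5p and -0.81 ± 0.62 for mmu-miR-125b-5p. Without mouse 3368, 3 members were called lower than at month 0: mmu-miR-99a-5p (-1.11, adjusted p = 0.0146), mmu-miR-99b-5p (-1.20, adjusted p = 0.0225) and mmu-miR-125a-3p (-2.09, adjusted p = 0.00337), where the adjusted p over all alternatives reached 0.967, 0.958 and 0.485. That mouse was left out after its values were seen, and the share of all miRNAs called without it is not given here. The members' median over all 7 mice was -0.48, and that of all miRNAs tested was -0.06.

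Mouse 3368 also stood apart in other miRNAs. Its last library held 218 CPM of mmu-miR-126a-3p, against 186 CPM at its own month 0 and 1377 to 4584 CPM in the last libraries of 5 CM mice, with 464 CPM in mouse 3370. Its vessel wall sum was 1602 CPM in that library, against 20.2 to 288 CPM in the last libraries of the other 6 CM mice and 275 to 752 CPM at month 0. The part of vessel wall RNA in its high levels of the members was not tested. The 2 CM mice with the lowest mmu-miR-126a-3p at the end were thus also those with the highest mmu-miR-99a-5p, a description over 7 libraries that share depth and scaling.

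In 2 CM mice the drop fell after month 6. In mouse 3334 mmu-miR-99a-5p was at 4686 CPM at month 6 and 397 CPM at month 6.5. In mouse 3336 it was at 2693 CPM at month 6, 1158 CPM at month 6.5 and 582 CPM at month 7. The library numbers in the titles of mouse 3334 (CM) and mouse 3335 (Ctrl) cross after month 5, so the identity of both mice carries a doubt. The numbers do not settle whether it lies in their libraries up to month 5 or in those from month 6 on. It bears on the Ctrl comparison above and the difference in change below, and also on the monthly tests and the sums over months 1 to 3. The calls over those sums were kept without both mice. Without both mice the 3 Ctrl calls from month 0 to month 6 were kept (0.84, 0.96 and 0.91, adjusted p = 0.0326, 0.0268 and 0.0486). Replacing the month 6.5 library of mouse 3334 by its month 6 library moved the log2 fold change of mmu-miR-99a-5p over the 7 mice to 0.03.

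Set against the Ctrl change from month 0 to month 6, the CM change from month 0 to the last library was lower for 6 of 6 members, with log2 differences from -1.36 to -0.54, and none was called, against 14.8% of 512 miRNAs by edgeR (186 with an unadjusted p under 0.05). It was -1.21 ± 0.51 for mmu-miR-99a-5p (adjusted p = 0.0872) and -1.23 ± 0.57 for mmu-miR-99b-5p (adjusted p = 0.119). It was -1.08 ± 0.56 for mmu-miR-125a-5p, -0.88 ± 0.66 for mmu-miR-125a-3p, -1.36 ± 0.77 for mmu-miR-125b-5p and -0.54 ± 0.79 for mmu-miR-100-5p. Without mice 3334 and 3335 no member was called either (-1.02, adjusted p = 0.194, for mmu-miR-99a-5p). Without CM mouse 3368, 4 members were called: mmu-miR-99a-5p (-1.93, adjusted p = 0.00104), mmu-miR-99b-5p (-2.06, adjusted p = 0.00159), mmu-miR-125a-5p (-1.76, adjusted p = 0.00751) and mmu-miR-125a-3p (-1.95, adjusted p = 0.00984); over all alternatives the adjusted p reached 0.24, 0.34, 0.403 and 0.565. Omitting that mouse is a choice made after its values were seen, and the share of all miRNAs called without it is not given here. The dates compared also differ, month 4 to 10 in CM mice and month 6 in Ctrl mice.

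**Figure D4:**
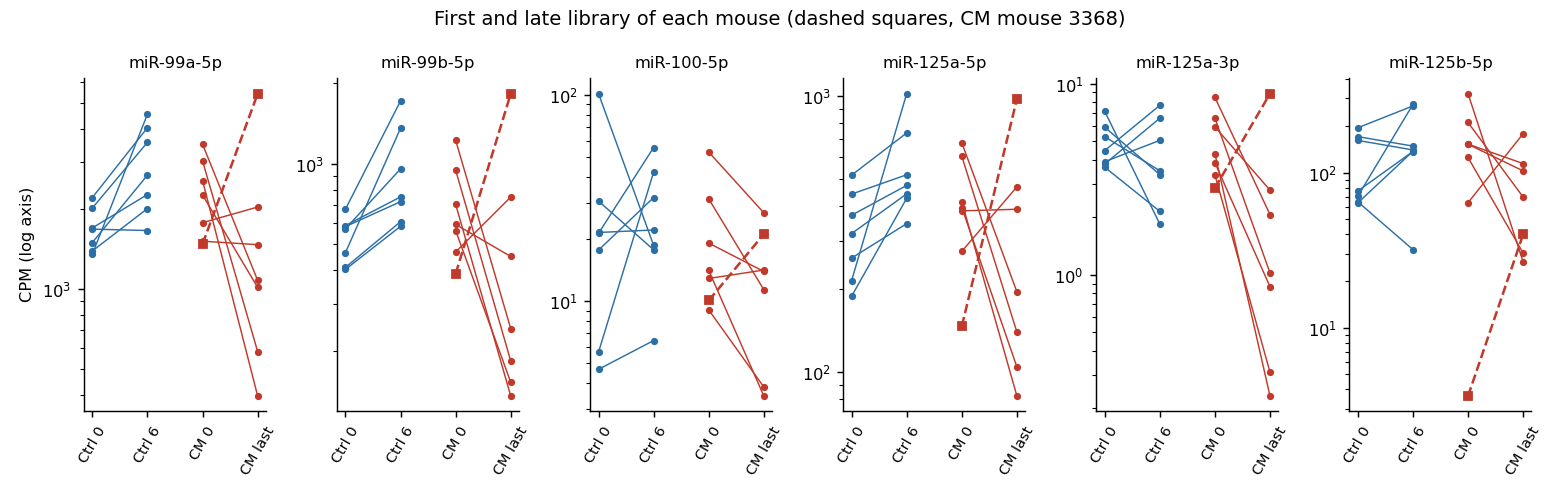
CPM (log axis) in the month 0 and month 6 libraries of the 7 Ctrl mice (blue) and in the month 0 and last libraries of the 7 CM mice (red), with a line per mouse and dashed squares for CM mouse 3368. For miR-99a-5p most Ctrl lines go up (to 1660 to 4540 CPM), and 5 of 7 CM lines go down, while mouse 3368 goes up to 5421 CPM.

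The members varied together to different degrees. Over libraries, mmu-miR-99b-5p and mmu-miR-125a-5p from chromosome 17 had a Spearman rho of 0.959 in 53 CM and 0.839 in 76 Ctrl libraries, and their ratio kept within 1.15 to 2.65 in CM libraries. mmu-miR-99a-5p and mmu-miR-99b-5p had a rho of 0.867 and 0.865. mmu-miR-125a-5p and mmu-miR-125a-3p, cut from 1 hairpin, had a lower rho of 0.688 and 0.508, with 46.2 to 1678 reads of the 5p strand per read of the 3p strand in CM libraries. mmu-miR-100-5p had a rho of 0.237 in CM and 0.47 in Ctrl libraries with mmu-miR-99a-5p and lower ones with the other members. These are descriptions: libraries of 1 mouse are not independent, and all share the scaling by depth.

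Of 330 other miRNAs with a mean of at least 10 CPM, the closest to mmu-miR-99a-5p over all training libraries were mmu-miR-181d-5p (rho 0.873), mmu-miR-330-3p (0.835) and mmu-miR-125b-2-3p (0.833). The last of these is a product of the same chromosome 16 cluster, with rho 0.913 in CM and 0.784 in Ctrl libraries. The closest to mmu-miR-99b-5p were mmu-miR-125a-5p (0.896), mmu-miR-152-3p (0.821) and mmu-miR-130a-3p (0.815), and those to mmu-miR-125a-5p were mmu-miR-99b-5p, mmu-let-7e-5p (0.759) and mmu-miR-221-5p (0.746). mmu-miR-100-5p was closest to miRNAs known from fibroblasts and epithelia, mmu-miR-199b-3p (0.688), mmu-miR-205-5p (0.576) and mmu-miR-31-5p (0.475). This likeness lay more in the Ctrl libraries (0.754, 0.666 and 0.642) than in the CM libraries (0.496, 0.384 and 0.018). In the raw counts mmu-miR-125b-5p had no close match, with mmu-miR-330-3p (0.541), mmu-miR-181d-5p (0.502) and mmu-miR-99a-5p (0.478) nearest.

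For mmu-miR-125b-5p the 2 deposited training tables differed. For the other 5 members the rho between CPM from the raw counts and the deposited CPM was 0.978 to 0.995 over the training libraries, and for mmu-miR-125b-5p it was 0.548. The deposited value was 1.05 to 37.9 times the value from the counts, with a median of 2.32 times, and means were 379 and 175 CPM. In mouse 3368 at month 0 it was 3.62 CPM from the counts and 136.9 CPM as deposited. The SD of log2 CPM among Ctrl libraries of 1 month was 1.38 in the counts and 0.50 in the deposited values. The rho between mmu-miR-99a-5p and mmu-miR-125b-5p was 0.401 in CM and 0.437 in Ctrl libraries in the counts, and 0.924 and 0.856 in the deposited CPM. Which table holds the better estimate was not tested, and each mmu-miR-125b-5p value above is from the counts unless stated.

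**Figure D5:**
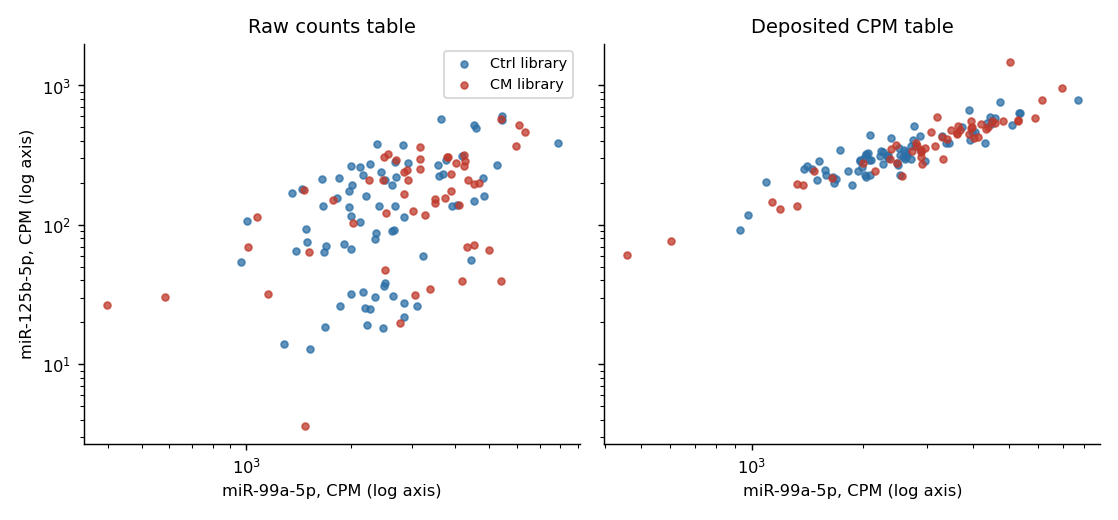
CPM of miR-125b-5p against CPM of miR-99a-5p (both log axes) in the training libraries, CM in red and Ctrl in blue, from the raw counts (left) and from the deposited CPM table (right). The points are scattered on the left (rho 0.401 in CM and 0.437 in Ctrl libraries) and lie along a band on the right (0.924 and 0.856).

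The validation cohort was deposited as CPM only. Its libraries at time point 5 held 1645456 to 5445215 reads (12 libraries), and the other 90 libraries held 1744 to 76906 reads, of which 36.7% to 99.1% were mmu-miR-5099. In those 90, mmu-miR-99a-5p was above 0 in 17 libraries with at most 34 reads, mmu-miR-99b-5p in 18 with at most 48 and mmu-miR-125a-3p in 6 with at most 2, and a count of 0 allows up to 50.6 to 293 CPM there, so no comparison was made. Point 5 compared 6 CM with 6 Ctrl mice. The values there cannot be set against training levels, since the deposited scaling differs between the tables.

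At point 5 no member was called by limma, against 0% of 930 miRNAs (54 with an unadjusted p under 0.05); edgeR on recovered reads also called 0, with 70 under that p. On the log2(CPM + 1) scale all 6 differences were below 0, from -1.94 to -0.32. mmu-miR-99b-5p was at 3150, 4165 and 6835 CPM in CM mice against 4634, 9310 and 12665 CPM in Ctrl mice (-0.84 ± 0.31, adjusted p = 0.816), and 4 of 6 CM mice were below every Ctrl mouse. mmu-miR-125a-3p was at 0, 27.8 and 89.6 CPM against 29.6, 84.8 and 142 CPM (-1.94 ± 0.75, adjusted p = 0.816), with 5 of 6 CM mice below every Ctrl mouse. These are 0 to 60 reads per library, and 3 reads correspond to 6.46 to 12.2 CPM. mmu-miR-125a-5p was at 1013 to 7465 CPM against 4041 to 8225 CPM (-0.70 ± 0.38, adjusted p = 0.87).

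The members of the chromosome 16 and 9 clusters showed no higher level in CM mice at this point. mmu-miR-99a-5p was at 14707, 19999 and 26942 CPM in CM against 16952, 28775 and 37316 CPM in Ctrl mice (-0.37 ± 0.27, adjusted p = 0.941). mmu-miR-125b-5p was at 1740 to 4412 CPM against 3175 to 5707 CPM (-0.49 ± 0.29, adjusted p = 0.883), and mmu-miR-100-5p at 47.2 to 1276 CPM against 144 to 1319 CPM (-0.32 ± 0.62, adjusted p = 0.979). The vessel wall sum there was 1182 to 9809 CPM in CM and 2458 to 10633 CPM in Ctrl mice. How point 5 relates to the months of the training cohort is not stated.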

How the data were processed

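Mouse PBMC small RNA libraries (129 training, 102 validation) were analysed. According to the study's methods and processing notes, the authors trimmed adapters with cutadapt, aligned reads with Bowtie to the mouse genome, counted mature miRNAs and scaled values with edgeR; the notes name build GRCm38 and the methods name mm9, and how reads that match several miRNAs were counted is not given in the sources used here. The training counts deposited are whole raw counts per mature miRNA. The deposited CPM tables hold a TMM-scaled signal whose values are whole multiples of 1 read within 0.1 read (100% of values in both tables), so reads were recovered; 1376082 to 7520419 reads lay behind each training library.

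From the counts, CPM was computed with TMM. Groups were tested with edgeR 4.0.16 (quasi-likelihood test, filterByExpr, 2-sided, Benjamini-Hochberg over all miRNAs tested, called at an adjusted p under 0.05), 1 library per mouse and month. The 12 validation libraries of point 5 were tested with limma 3.58.1 on log2(CPM + 1), a scale that understates changes of low values, for miRNAs with a minimum of 1 CPM in 6 libraries. Pairs come from the same mouse. The correlation of same-mouse deviations at months 0 and 1 was -0.13 to 0.14 in CM and -0.27 to 0.10 in Ctrl mice. No libraries were identical. Alternatives were DESeq2 1.42.0, library sizes without TMM, other filters, sex or G number as covariates, the mouse as a replicate block, the deposited CPM, leaving out each mouse, and leaving out mice 3334 and 3335. The tests were first tested on simulated data with known changes. The members and lists were chosen with earlier results of these data known. All 6 members were covered in each comparison, by name or within a range of values. From other lists at most 4 called miRNAs were named by smallest adjusted p, and likeness took the 3 highest rho values. The floors given for a count of 0 cover counting error only. Each ± value is the SE of its fit and includes the spread between libraries. Libraries are separate mice within a month, so p-values of single months and of the sums per mouse measure the spread between mice. Comparisons over time treated the libraries of 1 mouse as independent unless the mouse was a block. Their p-values therefore mix the spread within and between mice.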

Additional observations from a re-analysis of the deposited data

Results flagged for a closer look

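Of 120 groups of 4 to 10 libraries in which a member's highest or lowest value was tested for standing apart from the rest (Dixon's criterion at 95%), 8 did, and chance gives about 1 in 20. The criterion was applied to log2(CPM + 1), while the values below are printed as CPM. At Ctrl month 2 mmu-miR-99a-5p was at 1289 CPM in mouse 3349, with the next value at 2352 CPM. mmu-miR-125a-5p was apart in 3 groups: 258 CPM in CM mouse 3368 at month 2 (next 459 CPM), 802 CPM in Ctrl mouse 3342 at month 2 (next 531 CPM) and 415 CPM in Ctrl mouse 3339 at month 3 (next 550 CPM). mmu-miR-125b-5p was at 3.62 CPM in CM mouse 3368 at month 0 (next 63.9 CPM) and at 31.9 CPM in Ctrl mouse 3346 at month 6 (next 136.5 CPM), both from the counts. At validation point 5 mmu-miR-100-5p was at 1319 CPM in Ctrl mouse 2705 (next 327 CPM), and mmu-miR-125a-3p was at 0 in CM mouse 2684 (next 19.8 CPM).

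The change of mmu-miR-100-5p from month 0 to month 1 differed between CM and Ctrl mice by 2.86 on the log2 scale (edgeR interaction, adjusted p = 0.0284). The months come from the same mice, and with the mouse as a replicate block the value was 2.28 (adjusted p = 0.174). It was also lost on leaving out any 1 of 8 of the 14 mice. No other member was called in this comparison.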

How the results depend on the processing

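Each member's difference was recomputed under alternatives, 1914 values in all. Of these, 1829 kept direction and call, 53 lost a call and 30 gained one. The direction turned in 2, both at month 3 with the G number as a covariate: mmu-miR-125a-5p was then 1.14 and mmu-miR-125a-3p 1.18, neither called. The sign differed in 6.58% of values, and those where either value was smaller than its SE were not treated as a change of direction. At month 6 with the G number 5 members so changed sign from values below their SE, among them mmu-miR-100-5p (2.26 ± 0.90), mmu-miR-99a-5p (0.76 ± 0.54), mmu-miR-99b-5p (0.84 ± 0.64) and mmu-miR-125a-5p (0.85 ± 0.57), none called. The number of members called was 3 at month 1, 1 at month 2, 4 over months 1 to 3, 3 for Ctrl month 6 against month 0, 1 for the month 1 difference in change and 0 elsewhere. With the G number it was 0 at months 1 and 2. With all training libraries in 1 fit, with or without the G number, it was 1 at month 1, 0 at month 2 and 1 at month 5. Without a filter it was 0 at month 2. With reads recovered from the deposited CPM it was 2 at month 2 and 1 at month 3. DESeq2 gave 1 at month 3, 1 at month 5 and 1 for Ctrl month 1 against month 0. Leaving out mice 3334 and 3335 gave 2 at month 5 and 1 for CM month 1 against month 0. Sums over months 1 to 6 gave 2, and limma on the deposited CPM gave 1 for the last CM libraries. With the mouse as a replicate block the month 1 difference in change had 0. The block removed the call of mmu-miR-100-5p there (adjusted p = 0.174) and that of mmu-miR-125a-5p in Ctrl mice at month 6 (adjusted p = 0.0575), and changed no other member's call. Leaving out 1 mouse gave 2 to 3 members at month 1, 1 to 2 at month 2, 0 to 1 at month 3, 0 to 1 at month 5, 3 to 5 over months 1 to 3, 0 to 3 for the last CM libraries, 0 to 1 for CM month 1, 0 to 3 for Ctrl month 6, 0 to 1 for the month 1 difference in change and 0 to 4 for the late one. The causes were not tested. The levels of 5 members moved by less than the spread between mice between both tables; that of mmu-miR-125b-5p moved beyond it in 10 of 14 groups (0.90 to 2.50 on the log2 scale). The number of all miRNAs called, the background of each comparison, moved by over 1.5 times in some fits. With the G number it was 10 against 130 at month 1, 0 against 65 at month 2 and 6 against 100 at month 3. With all training libraries in 1 fit and the G number the counts for months 2 to 6 were 42, 62, 51, 6 and 15 in that order. With all training libraries in 1 fit it was 70 against 4 at month 4, 18 against 0 at month 5 and 19 against 0 at month 6. With the mouse as a replicate block it was 16 against 59 for CM month 1, 0 against 3 for Ctrl month 1, 21 against 44 for the month 1 difference in change and 0 against 12 at month 3. Month 4 had 13 calls without a filter, 2 with a minimum of 10 counts, 0 with sex as a covariate, 10 with recovered reads and 7 without mice 3334 and 3335. Month 2 had 42 without a filter, and recovered reads gave 22.2% of miRNAs there and 67 for the month 1 difference in change. Library sizes without TMM gave 39 for CM month 1. DESeq2 called 4 against 1 at month 0, 21% against 13.5% of miRNAs at month 2, 20 against 4 at month 4, 18 against 0 at month 5, 15 against 3 for Ctrl month 1, 23 against 12 for the month 3 difference in change and 22.9% against 14.8% of miRNAs for the late one. Leaving out mice 3334 and 3335 gave 53 against 0 at month 5, 0 against 3 for Ctrl month 1 and 46 against 76 for the late difference in change.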
